A study of Mus musculus with 6 samples.

Results

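*Gata3*, *Il4*, *Il5* and *Il13* were examined as the transcription factor and cytokines that define T helper 2 (Th2) cells, in libraries of cells that were not directed towards that fate. The genes were chosen by symbol, and all 4 were found among the 24223 genes counted in each library. RNA-Seq was done on 6 mouse libraries, with 2 replicates for each of the cell types called Naive, Th17 and Th1. Naive cells were CD4+CD44- T cells of C57BL/6 mice, 1 to 2 months old, isolated with magnetic beads from pooled lymph nodes and spleens. Th17 and Th1 cells came from such cells activated through CD3 and CD28 and collected on the fifth day. Th17 medium held TGF-β, IL-6, IL-1β and IL-23 with antibodies to IL-4 and IFN-γ. Th1 medium held IL-12 and IL-2 with an antibody to IL-4. The antibody to IL-4, which blocks the main inducer of Th2 cells, was thus shared by both cultures, and no Th2 culture was analysed. The methods describe a further stimulation with PMA and ionomycin for cytokine staining alone.

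GATA3 is a zinc-finger transcription factor that T cells need to develop in the thymus and that directs Th2 differentiation. In Th2 cells, IL-4 acts through its receptor and STAT6 to raise GATA3, which then acts on the cluster of *Il4*, *Il13* and *Il5*. IL-4 drives class switching to IgE, IL-13 acts on epithelium and mucus, and IL-5 sustains eosinophils. T-bet, encoded by *Tbx21*, opposes this programme in Th1 cells. *Il4* and *Il13* are also made by mast cells, basophils, NKT cells and group 2 innate lymphoid cells (ILC2).

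The 3 cytokine genes lie close together on chromosome 11 of GRCm38, the assembly also called mm10. By GENCODE vM21, *Il4* runs from 53602982 to 53618669 and *Il13* from 53631324 to 53634702, both on the minus strand, with 12654 bases between them. *Il5* runs from 53720794 to 53725106 on the plus strand. *Rad50*, a DNA repair gene whose introns hold the control region of the cluster, lies between *Il13* and *Il5* from 53649519 to 53707319. The principal transcript of each cytokine gene has 4 exons. *Gata3* lies on chromosome 2 from 9857078 to 9890034 on the minus strand, with 6 exons in its principal transcript. On the other strand it overlaps *4930412O13Rik*, which had between 0 and 11 counts in each library.

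The sequences before the starts of the 3 cytokine genes are shown because these genes are the known targets of GATA3. Each is the 250 bases upstream of a RefSeq start on GRCm38.p6, written 5′ to 3′ on the strand of the gene, at chr11:53634703-53634952 for *Il13*, chr11:53618666-53618915 for *Il4* and chr11:53720544-53720793 for *Il5*. Capitals mark the GATA motif, searched on both strands as AGATAA or AGATAG, and as TGATAA or TGATAG.
Il13: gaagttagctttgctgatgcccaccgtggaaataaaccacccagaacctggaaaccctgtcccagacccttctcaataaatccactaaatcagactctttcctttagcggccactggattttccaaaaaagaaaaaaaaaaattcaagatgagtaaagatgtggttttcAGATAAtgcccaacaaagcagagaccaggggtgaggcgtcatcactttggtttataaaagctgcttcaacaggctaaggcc
Il4: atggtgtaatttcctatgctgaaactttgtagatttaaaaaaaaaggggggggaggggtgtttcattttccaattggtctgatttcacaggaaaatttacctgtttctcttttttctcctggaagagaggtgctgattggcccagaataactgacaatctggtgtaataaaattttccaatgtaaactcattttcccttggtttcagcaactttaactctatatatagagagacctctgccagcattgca
Il5: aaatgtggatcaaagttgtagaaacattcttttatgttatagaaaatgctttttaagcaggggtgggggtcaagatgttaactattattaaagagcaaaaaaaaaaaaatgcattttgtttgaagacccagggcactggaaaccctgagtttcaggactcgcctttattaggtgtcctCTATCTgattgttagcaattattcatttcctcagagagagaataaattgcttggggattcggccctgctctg
The motif begins 81 bases before the start of *Il13* and 72 bases before that of *Il5*, where it stands on the opposite strand. It is not in the *Il4* window shown, and a further RefSeq start of *Il4* has 1 match. Of 32851 upstream windows of the same length, 26.5% hold at least 1 match, so a match is common and is given as a description only.

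The counts assigned to genes numbered between 59973041 and 69080017 in replicate 1 and between 17742158 and 18608805 in replicate 2 of the 3 cell types. Expression is given as CPM, the number of counts relative to a library total scaled by TMM to a common size, and 3 counts were taken as the limit of detection, which is 0.0440 CPM in the most favourable library and 0.190 CPM in the least. Intervals and limits cover counting error only, since reads are not independent molecules. The lineage genes followed the labels, with *Il17a* at 608 ± 116 CPM in Th17 and at most 0.541 CPM in each other library, and *Tbx21* at 148 ± 14.4 CPM in Th1 (SD, n = 2). The T cell genes *Cd3e* and *Cd4* ranged from 191 to 334 CPM and from 422 to 740 CPM. In bulk RNA, a change in the number of cells that express a gene and a change in RNA per cell cannot be told apart.

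*Gata3* was highest in Th1 and lowest in Th17. Naive replicates 1 and 2 had 57.5 and 82.4 CPM, the Th17 replicates 18.4 and 8.54 CPM, and the Th1 replicates 116 and 241 CPM. The cell types did not overlap, although replicates within Th17 and within Th1 differed by about the same factor in opposite directions. Both Th17 libraries lay below both Naive libraries, as they did for 33.1% of all genes tested, and both Th1 libraries lay above both Th17 libraries, as for 31.5%. Naive had a mean of 69.9 ± 17.6 CPM, Th17 of 13.5 ± 6.96 CPM and Th1 of 179 ± 87.7 CPM.

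*Gata3* was down-regulated in Th17 from Naive, and its log2 change was -2.36 (standard error, SE, 0.45, adjusted p = 0.0080). To be called, a gene needed an adjusted p-value below 0.01 together with a log2 change beyond 1 in either direction. By this rule 1.43% of the 13607 genes tested went down and 4.01% went up in Th17. The call lay close to the threshold. It was lost with library size alone as the normalization, with a minimum of 10 counts in every library and after thinning to the smallest library, and also without any 1 of the Naive or Th17 libraries, where the change ranged from -3.02 to -1.93 and the adjusted p reached 0.048.

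The mean of *Gata3* in Th1 was 2.55-fold that of Naive. This log2 change of 1.35 (SE 0.43, adjusted p = 0.060) was not called. Without Th1 replicate 2 the change was 0.74, so its size rests largely on that library. In this comparison 4.64% of genes were called higher and 2.81% lower.

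Between the cultures the difference in *Gata3* was 13.3-fold by the means. The log2 change from Th17 to Th1 was 3.71 (SE 0.47, adjusted p = 0.0011), and it was called under all 15 alternatives tried. It was 4.38 without Th17 replicate 1 and 3.11 without Th1 replicate 2, the ends of its range with 1 library left out. Of all genes tested, 2.7% were called higher and 2.83% lower in Th1 than in Th17.

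**Figure D1:**
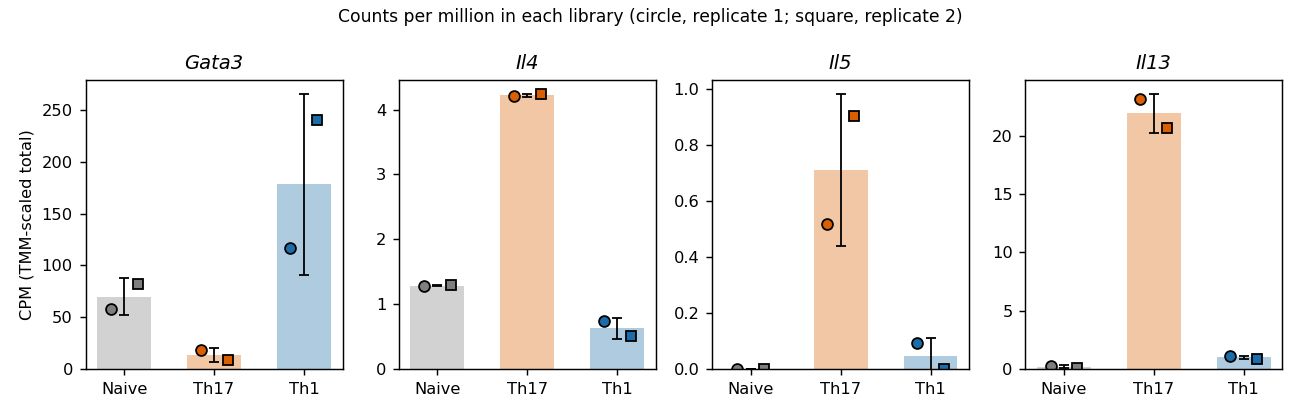
Expression of *Gata3*, *Il4*, *Il5* and *Il13* in CPM (vertical axes, a separate scale for each gene) in Naive, Th17 and Th1. Bars are means and error bars the SD of 2 libraries, with circles for replicate 1 and squares for replicate 2. *Gata3* peaks in Th1 at 116 and 241 CPM, whereas the 3 cytokine genes peak in Th17.

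*Il13* was highest in Th17, where *Gata3* was lowest, and it was lowest in Naive. Naive libraries had 0.279 and 0.0990 CPM (19 and 2 counts), Th17 libraries 23.1 and 20.7 CPM (1511 and 366 counts), and Th1 libraries 1.08 and 0.885 CPM (70 and 14 counts). The Th17 libraries were close to each other and far above the other 4, and Naive replicate 2 was below the limit of detection. The mean was 21.9 ± 1.71 CPM in Th17, 116-fold that of Naive and 22.3-fold that of Th1.

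*Il13* was up-regulated in Th17 against Naive, and its log2 change was 6.64 (SE 0.54, adjusted p = 9.6e-05). Without Naive replicate 1, where Naive rests on 2 counts, it was 7.74. Of all genes tested, 201 had a larger absolute change in that comparison. It was lower in Th1 than in Th17, where the log2 change was -4.45 (SE 0.47, adjusted p = 5.0e-04) and where 35.1% of genes had both Th1 libraries below both Th17 libraries. Both calls held under each alternative in which the gene was tested. From Naive to Th1 its log2 change of 2.19 (SE 0.50, adjusted p = 0.016) was not called by edgeR and was called by DESeq2. It ranged from 1.83 without Naive replicate 2 to 3.29 without Naive replicate 1, and edgeR called it in neither case. Both Th1 libraries had more *Il13* than both Naive libraries, as was so for 27.6% of genes.

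*Il4* was also highest in Th17, at a lower level. Naive libraries had 1.28 and 1.29 CPM (87 and 26 counts), Th17 libraries 4.21 and 4.24 CPM (275 and 75 counts), and Th1 libraries 0.743 and 0.506 CPM (48 and 8 counts). The replicates of Naive and of Th17 were nearly equal, and the 3 cell types did not overlap. Both Th17 libraries lay above both Naive libraries, as they did for 32.4% of genes, and both Th1 libraries lay below both Naive libraries, as for 28.4%.

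The mean of *Il4* in Th17 was 3.30-fold that of Naive and 6.77-fold that of Th1. Between the cultures, the log2 change from Th17 to Th1 was -2.71 (SE 0.52, adjusted p = 0.0084), which was called. That call was lost after thinning to the smallest library and without any 1 of the Th17 or Th1 libraries, with values from -3.06 to -2.49 and an adjusted p up to 0.055. Against Naive, the change in Th17 was 1.72 (SE 0.49, adjusted p = 0.043), called by DESeq2 but not by edgeR. The change from Naive to Th1 was -0.99 (SE 0.51, adjusted p = 0.23), which neither tool called.

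*Il5* was detected mainly in Th17 and only at a low level. It had 0 counts in both Naive libraries, 34 and 16 counts in Th17, and 6 and 0 counts in Th1. These are 0.520 and 0.905 CPM in Th17 and 0.0928 and 0 CPM in Th1. *Il5* passed the filter on low counts only through the Th17 libraries, so its high value there is partly a condition of being tested.

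The mean of *Il5* in Th17 was 7.40-fold that of a limit of 3 counts in each Naive library (0.713 against 0.0963 CPM). This ratio of means leaves out counting error and the unequal limits of the 2 Naive libraries, so it is no strict lower bound. The adjusted p of *Il5* in Th17 against Naive was 0.014 by edgeR, which was not called, and 0.0062 by DESeq2, which was. From Th17 to Th1 the log2 change of *Il5* was -3.32 (SE 1.03, adjusted p = 0.057), which was not called. All 6 Th1 counts came from replicate 1, so that without it the fitted value of -7.74 rests on 0 counts and is no estimate of size, and without Th1 replicate 2 the change was -2.86. No fold change is given between Th1 and Naive, where the mean of each was below the limit.

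**Figure D2:**
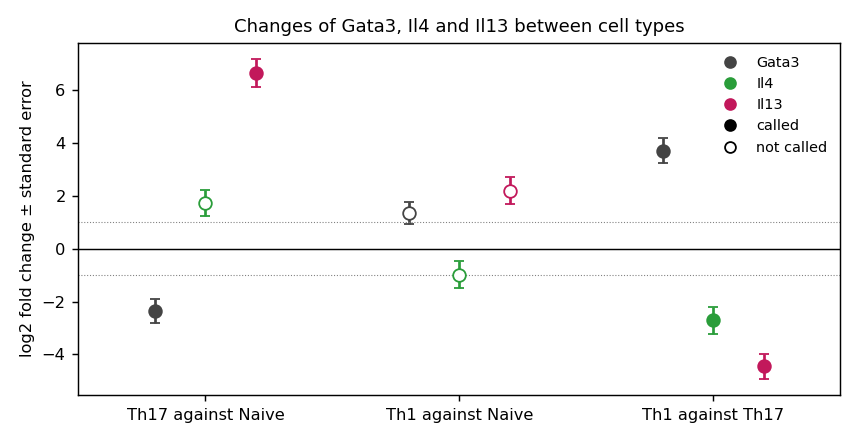
Log2 fold changes (vertical axis) of *Gata3*, *Il4* and *Il13* in the 3 comparisons (horizontal axis), with standard errors from edgeR. Filled circles are called changes, and dotted lines mark a log2 change of 1 either way. *Gata3* lies at -2.36 in Th17 against Naive and at 3.71 in Th1 against Th17, where *Il4* and *Il13* lie at -2.71 and -4.45.

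The balance of the cytokine genes also differed between the cell types. This measure is taken within a library and does not depend on the normalization. *Il13* made up 17.9% of the *Il4* and *Il13* counts in Naive replicate 1 (exact 95% binomial interval 11.2 to 26.6%) and 7.14% in replicate 2 (0.877 to 23.5%). It made up 84.6% (82.8 to 86.2%) and 83.0% (79.2 to 86.4%) in Th17. In Th1 it was 59.3% (49.9 to 68.3%) and 63.6% (40.7 to 82.8%). The intervals of both Naive libraries lay below those of all 4 cultured libraries. The interval of Th1 replicate 2, which rests on 22 counts, overlapped that of Th17 replicate 2. It ended just below that of Th17 replicate 1 (82.80 against 82.84%). The interval of Th1 replicate 1 overlapped neither. These intervals cover counting within a library and not the spread between the 2 libraries of a cell type.

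**Figure D3:**
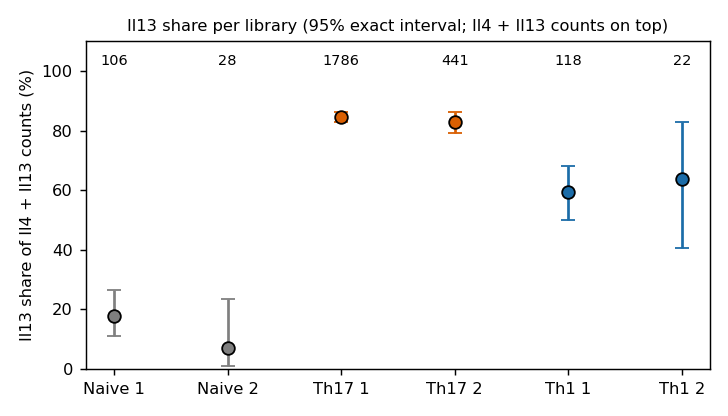
Share of *Il13* among the counts of *Il4* and *Il13* (vertical axis, percent) in each library, with exact 95% binomial intervals as bars and the number of counts printed above. The Naive libraries lie at 17.9 and 7.14%, those of Th17 at 84.6 and 83.0%, and those of Th1 at 59.3 and 63.6%.

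Levels of different genes were compared per kilobase of the principal transcript. In Th17, *Il13* had 18.2 ± 1.42 CPM per kilobase, *Il4* 7.16 ± 0.0415 and *Il5* 0.464 ± 0.177, against 4.19 ± 2.17 for *Gata3*. On this scale *Il13* and *Il4* stood above *Gata3* in both Th17 libraries. By counts *Il4* stood below *Gata3* there, with 275 against 1202 in replicate 1 and 75 against 151 in replicate 2. The place of *Il4* thus rests on the lengths used, 590 bases for *Il4* and 3215 for *Gata3*. In Naive the order was different, with *Gata3* at 21.8 ± 5.48, *Il4* at 2.17 ± 0.0127 and *Il13* at 0.157 ± 0.106 CPM per kilobase. In Th1, *Gata3* had 55.5 ± 27.3 CPM per kilobase, while *Il4* had 1.06 ± 0.284 and *Il13* 0.817 ± 0.116.

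Of the neighbours of the cytokine cluster, the 6 found among the genes counted were all tested. Over all genes tested, edgeR called 5.43% between Th17 and Naive, 7.45% between Th1 and Naive and 5.53% between Th1 and Th17. At such shares, 0 calls say little about so few genes. Between Th17 and Naive edgeR called 0 of the 6 neighbours, while 3 had an unadjusted p under 0.05 and DESeq2 called 0. Between Th1 and Th17 edgeR also called 0, 3 had an unadjusted p under 0.05, and DESeq2 called *Irf1* higher and *Slc22a4* lower. *Rad50* was at 53.5 ± 3.79 CPM for Naive, 38.3 ± 4.19 for Th17 and 58.4 ± 21.9 for Th1, and it changed by -0.48 on the log2 scale from Naive to Th17 (adjusted p = 0.30). *Kif3a*, a kinesin motor subunit, ends 1014 bases from the full span of *Il4*, whose principal transcript covers only 53612460 to 53618669. *Kif3a* was higher in Th1 than in Naive by 1.73 on the log2 scale (adjusted p = 0.0071 by edgeR). In Th17 against Naive it was not called (0.99, adjusted p = 0.069 by edgeR). *Slc22a4*, an organic cation transporter, was lower in Th1 than in Naive (adjusted p = 0.0053 by edgeR). Its means were 2.79 ± 2.26 CPM in Naive and 0.0787 ± 0.0675 CPM in Th1, which is near the limit of detection. The fitted log2 change of -5.59 is thus no firm estimate of size. *Irf1*, an interferon-induced transcription factor, *Slc22a5*, a carnitine transporter, and *Sept8*, a septin, were not called by edgeR in the 3 comparisons.

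In the GATA family, 3 of 6 genes were tested. *Gata1*, the factor of erythroid and mast cell development, stood at 94.6 and 21.1 CPM in the Naive libraries, 10.8 and 12.0 in those of Th17, and 54.8 and 90.6 in those of Th1. *Gata2*, which acts in blood progenitors, mast cells and basophils, stood at 32.6 and 14.2, 14.0 and 18.7, and 6.16 and 4.80 CPM in the same order. Neither was called by edgeR in the 3 comparisons. DESeq2 called *Gata1* lower in Th17 than in each of the other cell types, and *Gata2* lower in Th1 than in each of them. In Th17 the means were 11.4 ± 0.830 CPM for *Gata1* and 16.4 ± 3.31 CPM for *Gata2*, beside 13.5 ± 6.96 for *Gata3*. *Gata4*, *Gata5* and *Gata6* had 3 counts or fewer in each library.

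The pathway around the 4 genes was read from lists of 75 genes, of which 69 were tested. Between Th17 and Naive, 11 were called higher and 6 lower, 24.6% of those tested against 5.43% of all genes. Between Th1 and Naive, 13 were higher and 4 lower, again 24.6%, against 7.45% of all genes. Between Th1 and Th17, 5 were higher and 4 lower, 13.0% against 5.53%. The median log2 fold changes were -0.07, 0.38 and 0.38, against -0.02, -0.02 and -0.03 over all genes tested. The lists hold genes of other lineages too, such as *Tbx21*.

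Of 14 receptor and kinase genes, 13 were tested. *Il4ra*, the chain that binds IL-4, and *Stat6*, the factor that carries its signal, were not called in any comparison. *Il4ra* had a mean CPM of 239 ± 76.6 for Naive, 228 ± 22.5 for Th17 and 454 ± 146 for Th1, and *Stat6* had 233 ± 54.8, 155 ± 25.7 and 238 ± 37.7 CPM. *Csf2rb2* was higher than in Naive in Th17 (log2 fold change 5.24) and in Th1 (3.55), and *Csf2rb*, the shared chain of the receptors for IL-5, IL-3 and GM-CSF, was higher in Th17 (3.69). *Il13ra1*, a chain of the IL-13 receptor, was lower in Th1 than in Th17 (log2 fold change -4.53, adjusted p = 0.0070). Its means were 2.68 ± 1.01 CPM in Th17, 0.280 ± 0.186 in Naive and 0.133 ± 0.0794 in Th1, which is near the limit of detection. Like *Il5*, it passed the filter on low counts only through the Th17 libraries, so its high value there is partly a condition of being tested. *Il13ra2* had 0 counts in each library.

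Among 20 factors known to act with GATA3, *Batf*, an AP-1 factor, was higher in Th17 (log2 fold change 2.00) and in Th1 (1.31) than in Naive. *Nfatc1*, a factor activated by calcium, followed the order of *Gata3* between the cultures and fell in Th17. It was lower in Th17 than in Naive (-1.67, adjusted p = 0.0098) and higher in Th1 than in Th17 (1.77, adjusted p = 0.0075). *Rbpj*, the effector of Notch, was higher in Th1 than in Naive (1.69). *Maf*, an activator of *Il4*, had 280 and 118 CPM in Th17, 149 and 65.6 CPM in Th1 and 87.3 and 94.0 CPM in Naive, and it was not called.

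Among 17 factors known to oppose GATA3 or the cytokines, *Tbx21*, *Eomes*, *Zfpm1* and *Sox4* were lower in Th17 than in Naive. *Zfpm1*, a cofactor that binds GATA proteins, had a mean CPM of 208 ± 32.7 for Naive, 13.7 ± 6.68 for Th17 and 84.3 ± 40.4 for Th1, and was called higher in Th1 than in Th17 (2.61) as *Gata3* was. *Eomes*, a T-box factor, changed by -4.44 on the log2 scale. *Sox4* was lower than in Naive in Th17 (-3.27) and in Th1 (-4.73). *Tbx21* and *Gata3* were both lowest in Th17 and highest in Th1, and *Tbx21* stood at 23.3 and 20.8, 4.57 and 2.71, and 138 and 158 CPM in Naive, Th17 and Th1. *Socs3*, an inhibitor of cytokine signalling, was higher in both cultures than in Naive, by 2.50 in Th17 and 1.99 in Th1. *Stat4*, which transmits IL-12, was higher (1.33) and *Foxp3*, the regulatory T cell factor, lower (-2.45) in Th1 than in Naive.

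Of 24 other genes typical of Th2 cells, 19 were tested. Against Naive, Th17 had 6 of them higher and 1 lower, and Th1 had 7 higher and 2 lower. Over all genes tested, 4.01% were called higher and 1.43% lower in Th17, and 4.64% and 2.81% in Th1. Those higher in both cultures were *Nfil3*, *Il10*, *Csf2*, *Il24* and *Ccl22*. *Csf2*, which encodes GM-CSF, rose by a similar amount in Th17 (6.94) and Th1 (6.89). *Il10*, an anti-inflammatory cytokine, was higher in Th1 than in Th17 (3.06, adjusted p = 0.0045), against the direction of *Il13*. *Ccl22*, a chemokine that attracts cells bearing CCR4, was lower in Th1 than in Th17 (-3.35, adjusted p = 0.0011), and *Penk* too (-3.82). *Il17rb*, a receptor for IL-25, was lower in both cultures than in Naive, with changes of -3.93 and -3.95. *Ecm1* and *Ccr4*, a receptor for CCL22, were higher in Th1 than in Naive, by 3.07 and 1.90. *Il9* and *Il31*, further cytokines of the type 2 response, were not tested, and had at most 15 and 18 counts in a library.

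**Figure D4:**
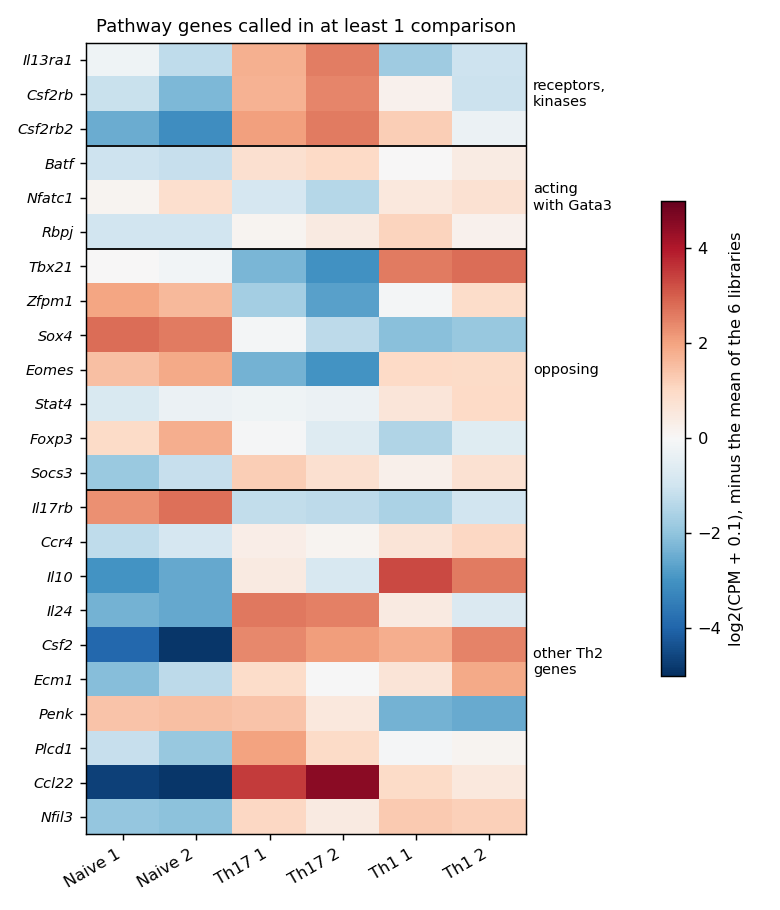
Heat map of 23 pathway genes called in at least 1 comparison (rows, grouped by role) in the 6 libraries (columns). Colours give log2(CPM + 0.1) minus the mean of the 6 libraries, red for higher and blue for lower. *Tbx21*, *Zfpm1* and *Eomes* are lowest in both Th17 libraries, and *Ccl22* is highest there.

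Some markers of cells other than T cells were higher in Th17 than in Naive, while others were not. Of 22 mast cell, basophil and eosinophil markers, 21 were tested. Over all genes tested, 4.01% were called higher and 1.43% lower in Th17 than in Naive, and 2.7% higher and 2.83% lower in Th1 than in Th17. From Naive to Th17, edgeR called 4 higher (*Fcer1a*, *Cma1*, *Mcpt8* and *Cpa3*) and 0 lower, where 2 were lower at an unadjusted p under 0.05 and DESeq2 called *Kit* and *Gata1* lower. From Th17 to Th1, edgeR called *Prg2*, *Epx*, *Prg3* and *Fcer1a* lower and 0 higher, where 1 was higher at an unadjusted p under 0.05 and DESeq2 called *Gata1* higher. The list summed to 345 and 95.9 CPM in the Naive libraries, 331 and 703 CPM in those of Th17, and 148 and 164 CPM in those of Th1. The largest part was *Kit* in the Naive libraries (99.8 and 29.6 CPM) and *Gata1* in those of Th1 (54.8 and 90.6 CPM). In Th17 it was *Prss34* in replicate 1 (79.9 CPM) and *Prg2* in replicate 2 (178 CPM). The sums thus weigh different genes in different cell types. *Tpsab1* was at 0 counts in the 4 cultured libraries, whereas *Fcer1a*, a chain of the IgE receptor, had 11.2 and 53.8 CPM in Th17. *Cpa3* had 34.0 and 111 CPM and *Mcpt8*, a basophil protease, 66.0 and 118 CPM there. In Naive replicate 1, *Kit* and *Gata1*, which erythroid precursors also express, stood at 99.8 and 94.6 CPM. The part of such cells in the *Il4*, *Il5* and *Il13* counts was not tested.

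In Th17 against Naive, where 4.01% of genes were called higher and 1.43% lower, 10 of 14 neutrophil granule markers were higher and 1 lower. They summed to 423 and 245 CPM in the Naive libraries, 3412 and 3249 CPM in those of Th17, and 44.7 and 67.6 CPM in those of Th1, and their part in the results was not tested. The 9 T cell markers counted, of 12 on the list, summed to between 3225 and 4630 CPM in each library. Over all genes tested, edgeR called 5.43% between Th17 and Naive, 7.45% between Th1 and Naive and 5.53% between Th1 and Th17. Of these T cell markers it called 0 in each comparison. At an unadjusted p under 0.05 there were 3 between Th17 and Naive, 1 between Th1 and Naive, and 2 between Th1 and Th17, and DESeq2 called *Cd28* higher in Th1 than in either other cell type and *Zap70* higher in Th1 than in Th17. Erythroid markers summed to 953 and 150 CPM in Naive and to at most 4.30 CPM in each cultured library. For 4 of the 11 found there, globin genes, 0 counts were listed in each library.

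**Figure D5:**
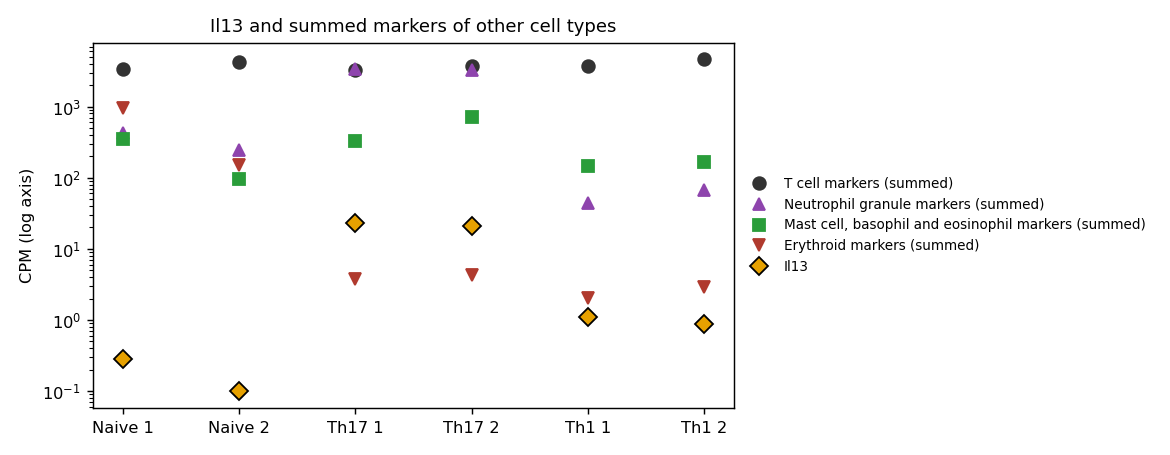
*Il13* and the summed levels of 4 marker lists in CPM (vertical log axis) in the 6 libraries (horizontal axis). Mast cell, basophil and eosinophil markers sum to 331 and 703 CPM in Th17, where *Il13* is at 23.1 and 20.7 CPM, and T cell markers stay between 3225 and 4630 CPM. The largest gene in the sum of mast cell, basophil and eosinophil markers differs between the cell types.

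The genes most like *Gata3*, *Il13* and *Il4* were taken by the root-mean-square difference of centred log2 CPM over the 6 libraries, as a description without a test. The nearest to *Gata3* was *Nod1*, an intracellular sensor of bacterial peptides, at 0.17 on the log2 scale. Its libraries had 37.6 and 61.9 CPM for Naive, 9.76 and 5.15 for Th17, and 74.8 and 130 for Th1. *Dusp5*, a phosphatase of ERK, and *Clic5*, a chloride channel protein, came next at 0.30 and 0.31. For *Il13* they were *Ifitm6* (0.15), *Il1r2* (0.39), a decoy receptor for IL-1, and *Spint1* (0.42), a protease inhibitor. For *Il4* they were *Ptger2* (0.17), a prostaglandin E2 receptor, *B930059L03Rik* (0.20) and *Actn2* (0.24), an actin-binding protein. With Pearson's r as the measure, 0 of the 3 genes were retained for each of them.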

How the data were processed

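The authors mapped reads to mm10 with Hisat2 (v2.2.1), removed duplicates and counted reads per gene with HTSeq (v0.13.5), and the deposited values are raw counts, 1 set per library. The annotation used is not given in the sources used here. The methods give default HTSeq settings and the supplementary code a reverse-strand option.

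The members and lists were chosen with earlier results of these data known. The tools were R 4.3.3 and edgeR 4.0.16. Of 24223 genes, 13607 passed filterByExpr. All 6 libraries were fitted with cell type as the only term, after TMM normalization (factors 0.862 to 1.09), and compared by the quasi-likelihood F-test with Benjamini-Hochberg adjustment. CPM used the TMM-scaled total. Log2 CPM used a prior count of 2. Standard errors are the fold change divided by the root of F. The study calls the replicates independent biological replicates. The smallest p of an exact permutation test (two-sided) at this size is 0.333. Depth ranged from 17742158 to 69080017 counts. In simulated data for Th17 against Naive, with 13607 genes, calls were made for 96 of 100 genes given a log2 change of 3, for 27 of 100 given 1.5, and for 2 of 13407 given none. The changed genes were drawn only from those above a minimum mean CPM, and counts were simulated with the dispersions fitted to these data. The rates for changed genes thus do not cover low genes such as *Il5*. The alternatives are named in the closing section, with DESeq2 1.42.0 among them.

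The genes named are the 4 members with their locus neighbours and family, up to 8 called genes of each list, a few fixed genes (*Stat6*, *Il4ra*, *Tbx21*, *Maf* and defining markers), and the 3 genes most like a member. Some genes under this rule are not reported here. Other genes were named after their values were seen. RefSeq promoters were found for all 4 members. Transcript lengths are from GENCODE vM21.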

Additional observations from a re-analysis of the deposited data

Results flagged for a closer look

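For 3 of the 4 genes, the change from Naive differed between Th1 and Th17 by the direct comparison of the cultures, in which 5.53% of the 13607 genes tested were called (2.7% higher and 2.83% lower in Th1). Both changes use the same Naive libraries. *Gata3* changed by -2.36 on the log2 scale in Th17 and by 1.35 in Th1, and the difference of Th1 minus Th17 was 3.71 (adjusted p = 0.0011 by edgeR, higher in 2 of 2 Th1 libraries). *Il13* changed by 6.64 in Th17 and 2.19 in Th1, a difference of -4.45 (adjusted p = 5.0e-04). *Il4* changed by 1.72 in Th17 and -0.99 in Th1, a difference of -2.71 (adjusted p = 0.0084). Groups of 2 libraries are too small for a test of outlying samples.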

How the results depend on the processing

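The alternatives were DESeq2, normalization by RLE or by library size alone, testing without the low-count filter, a minimum of 10 counts per library, a replicate block, a fit to only the 4 libraries of a comparison, counts thinned to the size of the smallest library, a threshold of 0.05 on the adjusted p, and omission of each library in turn. Of 155 values of the 4 genes under these, 131 kept their direction and side of the threshold, 12 lost a call, 12 gained one and 0 reversed. *Il4*, *Il5* and *Il13* could not be fitted under the minimum of 10 counts. With 1 library left out, the lone library of a cell type is assumed to vary like the others.

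The change of *Gata3* in Th17 against Naive was not called with library size alone (-2.38), at least 10 counts (-2.32) or thinning (-2.29), and ranged from -3.02 to -1.93 without 1 library. *Il4* in Th1 against Th17 was not called after thinning (-2.59) and ranged from -3.06 to -2.49 without 1 library. *Il4* in Th17 against Naive was called by DESeq2 (1.73) and at 0.05 (1.72). *Il5* in Th17 against Naive, whose fitted values rest on 0 counts in Naive, was called by DESeq2 (7.17), without the filter (7.86), with only the 4 libraries (7.92), at 0.05 (7.87) and with the block (7.84). *Il13* in Th1 against Naive was called by DESeq2 and without the filter (2.2 in both), at 0.05 (2.19) and with the block (2.24). *Gata3* in Th1 against Naive was called without the filter (1.36). The cause of these differences was not tested.

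The deviations of replicates correlated at -0.23 between Naive and Th17, 0.17 between Naive and Th1, and 0.08 between Th17 and Th1. Whether replicate numbers pair the libraries cannot be told from these values, and replicate 1 was the deeper library in each cell type. With the replicate block, the genes called rose from 739 to 1035 in Th17 against Naive and from 1014 to 1402 in Th1 against Naive. In Th1 against Th17 they rose from 752 to 1041. Pathway genes called there numbered 14, compared with 9, and no other count moved by over 1.5 times.

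The genes called numbered 739 in Th17 against Naive, 1014 in Th1 against Naive and 752 in Th1 against Th17. They numbered 1738, 1928 and 1824 by DESeq2, 2154, 2259 and 2232 without the filter, 343, 674 and 411 with at least 10 counts (fewer genes tested), and 2063, 2164 and 2112 at 0.05. Without 1 library they ranged from 319 to 885, 516 to 939 and 266 to 1016. They moved by over 1.5 times without Naive 1 (451 in Th17 against Naive, 516 in Th1 against Naive), Th17 1 (319, and 286 in Th1 against Th17), Th17 2 (384 and 266), Th1 1 (562 in Th1 against Naive, 455 in Th1 against Th17) and Th1 2 (412 in Th1 against Th17). Pathway genes called numbered 17, 17 and 9. In Th17 against Naive they were 29 by DESeq2, 34 without the filter, 11 with at least 10 counts and 32 at 0.05. In Th1 against Naive they were 28 without the filter, 11 with at least 10 counts, and 10 to 17 without 1 library, the lowest without Naive 1. In Th1 against Th17 they were 25 by DESeq2, 29 without the filter, 4 with at least 10 counts, 15 with only the 4 libraries, 27 at 0.05, and 5 to 16 without 1 library, the lowest without Th17 2 or Th1 2 and the highest without Naive 2. With the plain library total, the mean of *Il4* was 1.37 CPM in Naive and 4.41 CPM in Th17, beyond the small spread of its replicates. The depth of replicate 2 limits *Il5* and *Il13* in Naive and Th1, where counts were at or near the limit.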

Other observations

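Markers of further cells that can make IL-4 or IL-13 differed between the preparations as well. Of 12 ILC2 markers, 2 were higher (*Icos* and *Il2ra*, which activated T cells also carry) and 2 lower (*Il17rb* and *Klrg1*) in Th17 than in Naive. Between Th1 and Naive, 4 were higher and 2 lower. Over all genes tested, 4.01% were called higher and 1.43% lower in Th17 than in Naive, and 4.64% and 2.81% in Th1. *Nmur1*, the receptor for neuromedin U, had 20.8 ± 19.3 CPM in Th1 and 0.879 ± 0.444 CPM in Th17, a log2 fold change of 4.48 (adjusted p = 0.0048 by edgeR). Of 8 NKT cell markers, *Klrb1c*, which encodes NK1.1, was lower in Th17 (-3.76) and Th1 (-6.49) than in Naive, with 14.3 ± 4.37 CPM in Naive. *Il2rb*, a chain of the IL-2 receptor that activated T cells also carry, was higher in Th1 than in Naive (3.03), and *Cd160* was lower (-3.40). The part of such cells in the results was not tested.

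The ratio of *Gata3* to the summed CPM of *Il4*, *Il5* and *Il13* within a library was 37.0 and 59.4 for Naive, 0.660 and 0.330 for Th17, and 60.7 and 173 for Th1. *Gata3* had more counts than *Tbx21* in both Naive and both Th17 libraries and in Th1 replicate 2, and fewer in Th1 replicate 1, where the log2 ratio was -0.25.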
